A study of Mus musculus with 72 samples.

Results

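The growth hormone and IGF axis of the liver was followed here through 9 genes: the receptor gene Ghr, the transducer gene Stat5b, the feedback genes Socs2 and Cish, the ligand gene Igf1, its carrier gene Igfals, and the binding protein genes Igfbp1, Igfbp2 and Igfbp4. The 9 genes were taken by symbol from a table of read counts for 55573 Ensembl mouse genes, and each symbol matched 1 row. On GRCm38, Igfbp1 (chr11:7197782-7202546), Igfbp4 (chr11:99041244-99054392) and Stat5b (chr11:100780731-100850724) lie on chromosome 11, and Igf1 (chr10:87858265-87937042) and Socs2 (chr10:95385362-95417180) on chromosome 10. Ghr is at chr15:3317760-3583492, Igfals at chr17:24865997-24882010, Igfbp2 at chr1:72824503-72852474 and Cish at chr9:107296026-107302784, and each value counts reads over the exons of the gene. The table came from bulk RNA-seq of whole liver from adult male mice labelled C57BL/6 (C57BL/6J in the methods of the study), with 72 libraries in 4 groups of 18. SPF WT and GF WT mice carried floxed Bmal1 alleles without Cre (Bmal1 fl/fl), so the controls carried the floxed alleles too. SPF LKO and GF LKO mice also carried Cre under the albumin promoter, which removes the clock gene Bmal1 (listed as Arntl) in hepatocytes. SPF mice had a conventional specific pathogen free microbiota and GF mice were germ free. The GF mice lived in isolators, so microbiota and housing cannot be told apart. Livers were taken at 6 zeitgeber times (ZT2, ZT6, ZT10, ZT14, ZT18 and ZT22, with ZT0 as lights on), and each group had 3 libraries at each ZT. Libraries of a group and ZT are listed as separate replicates. Comparisons of groups had no ZT term, so their p-values measure the spread over the 18 libraries of a group, time of day included. Those of the rhythm tests measure the spread around a fitted cosine.

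Growth hormone is released by the pituitary in pulses, which are well separated in male rodents. In hepatocytes it binds its receptor, activates the kinase JAK2 and the transcription factor STAT5B, and STAT5B turns on Igf1, Igfals, Socs2 and Cish. SOCS2 and CIS (the product of Cish) then damp the signal. IGF1 from the liver circulates in a complex with a binding protein and the acid labile subunit encoded by Igfals, which holds it in blood. The smaller binding proteins IGFBP1, IGFBP2 and IGFBP4 hold IGF1 outside that complex, and liver Igfbp1 is known to rise in fasting and to be held down by insulin.

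Promoters of 8 of the 9 members were in a RefSeq table on GRCm38.p6, as 13 windows of 250 bases before and 50 after a transcription start. Socs2 was not matched. The windows were searched on both strands for the STAT5 motif TTCNNNGAA, the E-box CACGTG bound by the BMAL1 and CLOCK pair, and CAAAACA, the core of the insulin response element that FOXO factors bind. Among all 32851 windows in the table, 8.3% held the STAT5 motif, 7.15% the E-box and 6.28% CAAAACA. The STAT5 motif was found in the Cish window, with 2 matches, and in 2 of 3 Igfals windows. The E-box was found in 1 of 2 Igfbp2 windows, and CAAAACA in the Igfbp1 window. No other window of a member held these letters, which says nothing about sites elsewhere. The 4 windows below are shown because each holds a match in a gene whose level differs with group or mouse, and capitals mark the matches. For Igfbp2 that difference is by microbiota, and whether any match bears on these differences was not tested.
Cish, chr9:107296409-107296688, plus strand, 280 bases: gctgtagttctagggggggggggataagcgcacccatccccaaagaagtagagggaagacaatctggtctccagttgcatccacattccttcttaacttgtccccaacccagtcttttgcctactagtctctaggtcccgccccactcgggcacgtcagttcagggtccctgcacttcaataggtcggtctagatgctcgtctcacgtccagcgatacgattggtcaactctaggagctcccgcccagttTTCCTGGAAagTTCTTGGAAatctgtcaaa
Igfals, chr17:24877981-24878230, plus strand, 250 bases: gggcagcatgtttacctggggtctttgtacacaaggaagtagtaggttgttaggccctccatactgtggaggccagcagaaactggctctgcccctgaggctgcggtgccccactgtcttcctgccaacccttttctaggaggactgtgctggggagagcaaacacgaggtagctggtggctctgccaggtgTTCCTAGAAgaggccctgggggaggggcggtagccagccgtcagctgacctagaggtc
Igfbp1, chr11:7197537-7197786, plus strand, 250 bases: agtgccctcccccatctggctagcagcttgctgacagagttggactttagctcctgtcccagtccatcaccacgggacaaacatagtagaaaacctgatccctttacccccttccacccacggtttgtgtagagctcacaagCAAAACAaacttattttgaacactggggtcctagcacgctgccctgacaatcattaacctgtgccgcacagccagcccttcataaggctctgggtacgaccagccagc
Igfbp2, chr1:72824230-72824479, plus strand, 250 bases: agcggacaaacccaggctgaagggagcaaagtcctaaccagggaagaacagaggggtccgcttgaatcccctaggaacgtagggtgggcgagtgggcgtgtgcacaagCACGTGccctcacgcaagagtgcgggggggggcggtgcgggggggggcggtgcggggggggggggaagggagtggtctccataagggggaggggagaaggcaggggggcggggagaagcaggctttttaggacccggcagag
The Cish matches began at bases 1 and 12 after the start. The Igfals match began 58 bases before its start, the Igfbp1 match 108 bases before, and the Igfbp2 match 142 bases before.

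The libraries held 17369927 to 22076113 counts each. Hepatocyte markers were by far the highest of the marker lists. The 8 summed to at least 58213 CPM (counts per 1000000 counts) in every library, and lymphocyte markers to at most 24.4 CPM. The 5 pancreas markers averaged under 0.1 CPM in every group, and so did 3 of 4 fat cell markers. Alb, the albumin gene, took more of the counts in WT than in LKO livers. Its median share was 8.71% (SPF) and 9.39% (GF) in WT, and 4.05% (SPF) and 3.27% (GF) in LKO livers. The levels below are CPM scaled by TMM, a correction for such differences in makeup. With library totals alone the median log2 fold change of all genes moved to 0.10 (LKO against WT in SPF mice), 0.18 (the same in GF mice), -0.19 (GF against SPF in WT mice) and -0.13 (the same in LKO mice). Changes are therefore given relative to most other genes, and small ones depend on that choice. The gene-level count of Arntl, the targeted gene, does not show the deletion. It ran from 0.626 to 39.5 CPM in SPF WT, 8.52 to 29.3 CPM in SPF LKO, 0.332 to 41 CPM in GF WT and 7.06 to 13.4 CPM in GF LKO libraries, and at ZT6 and ZT10 each LKO library lay above the WT libraries of its microbiota and ZT. Its log2 fold change was called in neither genotype comparison (-0.33 in SPF mice with adjusted p = 0.588, -0.84 in GF mice with adjusted p = 0.0945, edgeR), so the labels were read against other clock genes. Clock genes went against the labels in 4 libraries. Npas2, which rises when BMAL1 is lost, was near absent from a pair of SPF LKO libraries, those labelled ZT14 replicate 2 (0.221 CPM) and ZT18 replicate 1 (1.83 CPM), while the other 16 of that group had 14.4 to 36.4 CPM. Among SPF WT libraries of ZT14, Arntl was 2.11 CPM in that labelled replicate 3 and 15.8 and 19.3 CPM in the other two. Among GF WT libraries of ZT6 it was 8.24 CPM in that labelled replicate 3 and 1.64 and 2.42 CPM in the other two. Results were also computed without these 4 libraries, and for the members they are given where a call changed. Values of the marker and gene lists below include these libraries and are not given without them.

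The members spanned a wide range of expression. Per transcript length, as TPM (transcripts per 1000000 transcripts), the medians over 72 libraries were 662 for Igfbp4, 598 for Igfbp2, 295 for Igfbp1, 258 for Igf1 and 236 for Ghr. Igfals had a median of 54.7 TPM and Stat5b of 30.3 TPM. The feedback genes were far lower, with 3.34 TPM for Socs2 and 1.51 TPM for Cish. The same genes differed in how much mice of 1 group varied. Ghr was the steadiest member, with a coefficient of variation of 8.42% to 10.4% over the 18 libraries of a group, followed by Igf1 with 10.5% to 17.8%. Cish had 84.7% to 161%, Socs2 63.6% to 102% and Igfbp1 46.5% to 113%. Cish shares 261 exon bases with Gm17040 and 479 with Gm17041 on the other strand. Reads were counted without strand, and reads that fell on both genes were not counted, so the Cish level leaves out those bases.

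**Figure D1:**
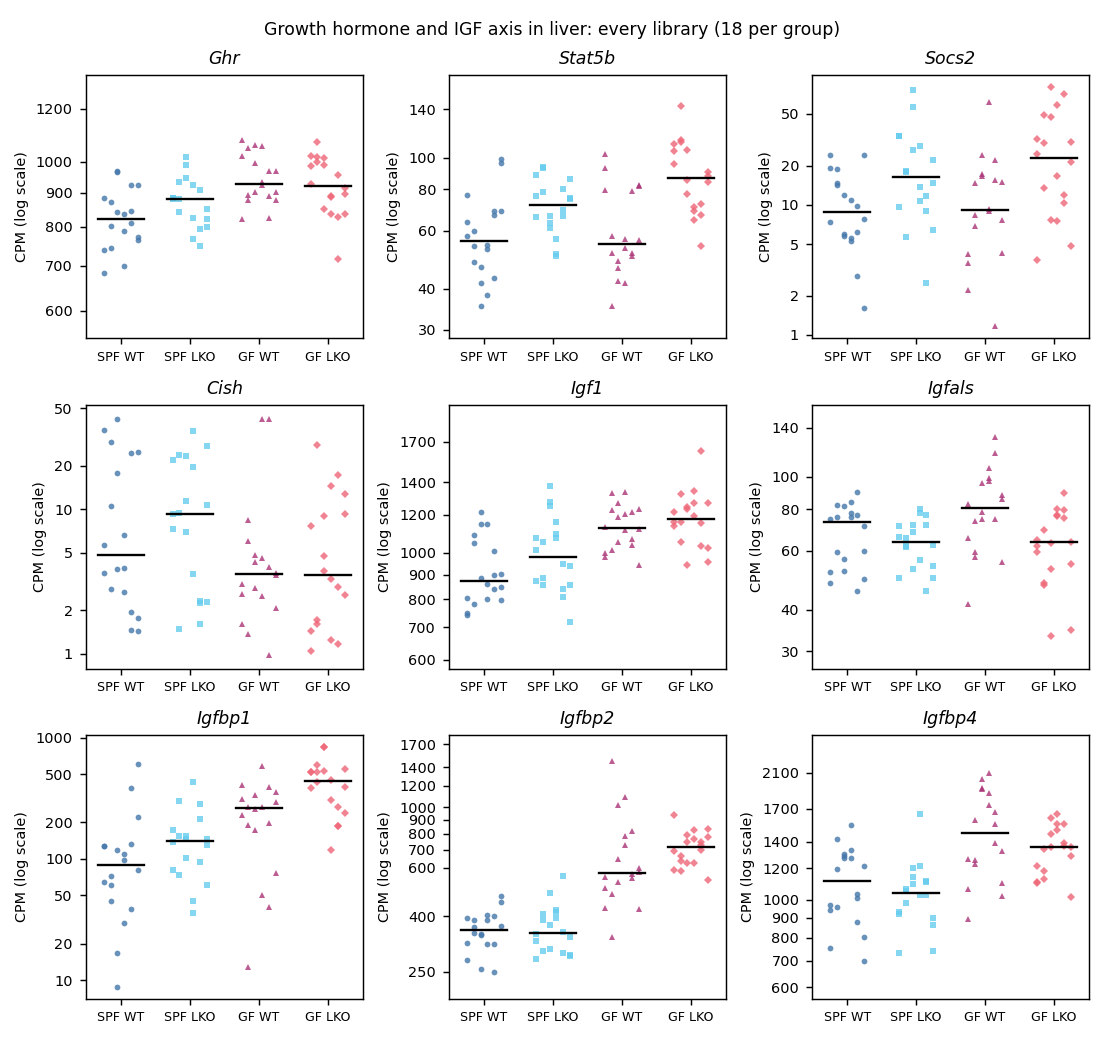
CPM (log scale) of the 9 members in every library, with 18 points per group placed from ZT2 (left) to ZT22 (right) and a bar at the group median. Igfbp2 points of GF mice lie mostly above those of SPF mice, with medians of 575 and 715 CPM against 356 and 347 CPM, while Socs2, Cish and Igfbp1 scatter over more than 7-fold within every group.

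The first question was what the absence of a microbiota did to the axis. GF mice had more Igfbp2 and Igfbp4 mRNA and slightly more Igf1 mRNA than SPF mice, in WT and in LKO livers. In WT mice 4 of the 9 members were called, all higher in GF (Ghr, Igf1, Igfbp2 and Igfbp4), at an adjusted p under 0.05 (edgeR quasi-likelihood test, Benjamini-Hochberg adjustment over all genes tested, as for every adjusted p of a fold change or rhythm below). Of all 12776 genes tested there, 31.7% were called, 14.1% higher and 17.6% lower. In LKO mice 5 members were called, all higher (Igf1, Igfbp1, Igfbp2, Igfbp4 and Stat5b), where 36.2% of 13010 genes were called, 17.9% higher and 18.3% lower. The median log2 fold change of the members was 0.28 in WT and 0.30 in LKO mice, beside -0.02 over all genes in both. In these livers 6 of 8 hepatocyte markers were also called higher in GF WT mice, and in GF LKO mice 5 were called higher and 1 lower. Their summed level ran from 98140 to 149544 CPM in SPF WT, 130558 to 186732 CPM in GF WT, 58213 to 142110 CPM in SPF LKO and 68182 to 95820 CPM in GF LKO libraries. This sum includes Alb, and it depends on the scaling. The median share of Alb in unscaled counts was 8.71% in SPF WT, 9.39% in GF WT, 4.05% in SPF LKO and 3.27% in GF LKO livers. In GF WT mice 4 of 7 endothelial markers were called (1 higher, 3 lower). Called lower were 2 of 5 cholangiocyte markers, 1 of 7 stellate and 1 of 7 Kupffer cell markers. In GF LKO mice 3 of 7 endothelial (1 higher, 2 lower) and 2 of 7 stellate markers (1 higher, 1 lower) were called. There 1 of 5 cholangiocyte and 1 of 7 Kupffer cell markers were called lower. The part of these markers in the result was not tested, and in whole liver a change in the share of a cell type cannot be told apart from a change of RNA per cell.

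**Figure D2:**
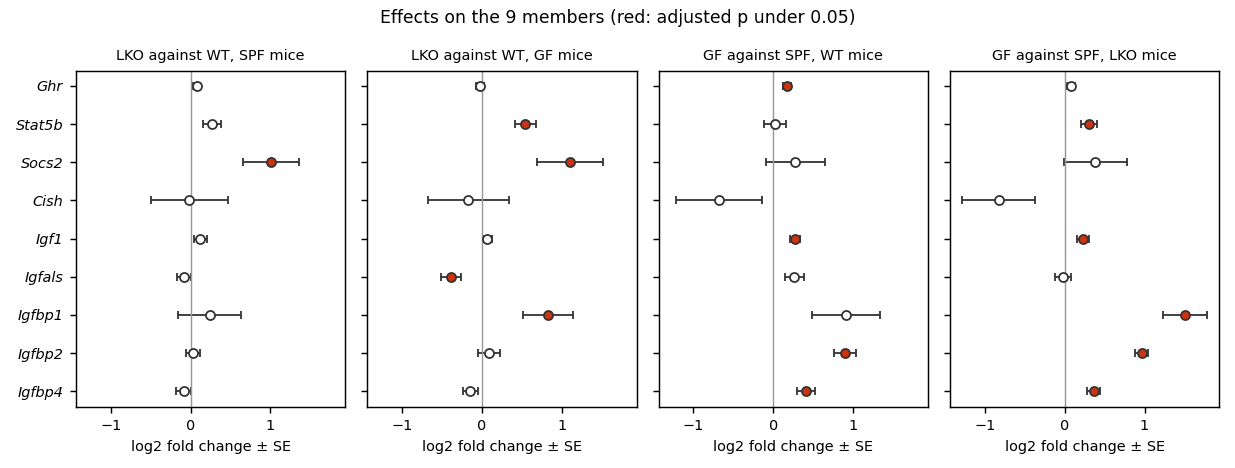
Log2 fold change with its SE for the 9 members in the 4 comparisons of 18 against 18 libraries, filled red where the adjusted p was under 0.05. Both microbiota panels show Igfbp2 near 0.9 to 1 with short bars, and both genotype panels show Socs2 near 1 with long bars.

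Igfbp2 encodes a binding protein that the liver secretes and that limits IGF1 action. In SPF WT livers it ranged from 249 to 475 CPM with a median of 356, and in GF WT livers from 336 to 1473 CPM with a median of 575. The lowest GF WT library was the library labelled ZT6 replicate 3, and the highest was ZT6 replicate 1. The log2 fold change was 0.89 with an SE of 0.14 (adjusted p = 8.34e-06). In LKO livers the SPF range was 280 to 562 CPM with a median of 347, and the GF range 544 to 935 CPM with a median of 715. The ranges overlapped only between the highest SPF LKO library, ZT18 replicate 3, and the lowest GF LKO library, ZT22 replicate 3. The log2 fold change was 0.97 with an SE of 0.08 (adjusted p = 1.58e-11), and leaving out any 1 library kept it between 0.94 and 1.01.

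Igfbp1, the binding protein that insulin represses, was the most spread of the abundant members. Its lowest, median and highest levels were 8.77, 89.6 and 601 CPM in SPF WT livers, 12.7, 262 and 587 CPM in GF WT livers, 36.1, 142 and 432 CPM in SPF LKO livers and 119, 441 and 842 CPM in GF LKO livers. All 4 groups overlapped, and GF LKO livers lacked the low values seen elsewhere. The highest SPF LKO and the lowest GF WT values came from libraries at odds with their labels. In LKO mice Igfbp1 was higher in GF livers by a log2 fold change of 1.51 with an SE of 0.28 (adjusted p = 7.65e-05), or 2.84-fold. In WT mice the log2 fold change was 0.91 with an SE of 0.43 and did not pass (adjusted p = 0.0997). With ZT as a covariate the WT value was 1.19 and passed (adjusted p = 0.0362), and it passed without SPF WT ZT18 replicate 2 or ZT22 replicate 1.

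Igfbp4 encodes a binding protein that blocks IGF1 until a protease cuts it. It was the most abundant member per length. Its lowest, median and highest levels were 701, 1113 and 1542 CPM in SPF WT, 892, 1474 and 2093 CPM in GF WT, 733, 1042 and 1650 CPM in SPF LKO, and 1016, 1362 and 1648 CPM in GF LKO livers. The highest SPF WT and SPF LKO values came from libraries at odds with their labels, and the other SPF LKO libraries had at most 1219 CPM. Igfbp4 was higher in GF mice by a log2 fold change of 0.41 (SE 0.11, adjusted p = 0.00445) in WT and 0.36 (SE 0.08, adjusted p = 0.000507) in LKO livers. With library totals alone the WT value was 0.24 and was no longer called (adjusted p = 0.0719).

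Igf1, the circulating growth factor itself, ranged from 744 to 1214 CPM (median 873) in SPF WT and from 944 to 1336 CPM (median 1126) in GF WT livers. In LKO livers it ranged from 719 to 1373 CPM (median 979) in SPF and from 945 to 1622 CPM (median 1175) in GF mice. The GF values sat higher but overlapped the SPF values in both genotypes. Igf1 differed by a log2 fold change of 0.28 (SE 0.06, adjusted p = 0.0011) in WT and 0.23 (SE 0.07, adjusted p = 0.014) in LKO mice. Neither was called with library totals alone, at 0.11 (adjusted p = 0.131) in WT and 0.12 (adjusted p = 0.142) in LKO mice.

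Ghr, which encodes the growth hormone receptor, was 825 ± 86.0 CPM (SD, n = 18) in SPF WT and 947 ± 81.1 CPM in GF WT livers. The log2 fold change of 0.17 (SE 0.05, adjusted p = 0.00705) vanished with library totals alone (adjusted p = 0.999). In LKO livers it was 872 ± 73.4 CPM in SPF and 924 ± 90.2 CPM in GF mice, with a log2 fold change of 0.08 that did not pass (SE 0.05, adjusted p = 0.197) and that was -0.04 with library totals alone. Igfals was 67.4 ± 14.4 CPM in SPF WT and 82.6 ± 23 CPM in GF WT livers, and its log2 fold change of 0.26 (SE 0.12) did not pass (adjusted p = 0.0766). Without the libraries at odds with their labels it was 0.30 with an adjusted p of 0.0498, and it was also called in 3 of 36 fits that left out 1 library: SPF WT ZT18 replicate 3, GF WT ZT2 replicate 1 or GF WT ZT22 replicate 1. The feedback genes were not called in either genotype. Cish had log2 fold changes of -0.68 (SE 0.54, adjusted p = 0.342) in WT and -0.83 (SE 0.46, adjusted p = 0.16) in LKO mice, an SE that leaves room for a change of either sign in WT mice.

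The second question was what loss of hepatocyte Bmal1 did. LKO livers carried about 2-fold more Socs2 than WT livers in SPF and in GF mice, and GF LKO livers also had more Stat5b and Igfbp1 and less Igfals than GF WT livers. In SPF mice Socs2 was the only member called, 1 of 9, where 23% of 13159 genes were called, 11.6% higher and 11.5% lower. In GF mice 4 of 9 were called, 3 higher and 1 lower, where 30.7% of 12662 genes were called, 15.5% higher and 15.2% lower. The members' median log2 fold change was 0.07 in both, beside -0.01 and 0.01 over all genes. Markers of Kupffer cells, the liver macrophages, moved with genotype as well: 5 of 7 were called lower in SPF LKO and 3 of 7 in GF LKO livers. Their summed level ran from 201 to 517 CPM in SPF WT, 192 to 314 in SPF LKO, 173 to 341 in GF WT and 128 to 290 in GF LKO livers, and its part in these results was not tested. In GF LKO against GF WT livers 4 of 8 hepatocyte markers were called (1 higher, 3 lower), 2 of the 5 cholangiocyte (bile duct cell) markers tested were called higher, and so were 2 of 7 stellate cell markers. The cholangiocyte markers summed to 27.9 to 58.1 CPM in GF WT and 45.1 to 163 CPM in GF LKO livers, and the part of these markers was not tested either. Of the neutrophil markers, which summed to at most 22.4 CPM, both that were tested were called lower in GF than in SPF mice of each genotype.

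Socs2, the feedback inhibitor that STAT5 induces, had lowest, median and highest levels of 1.62, 8.78 and 24.2 CPM in SPF WT and 2.52, 16.3 and 75.8 CPM in SPF LKO livers. In GF mice they were 1.18, 9.13 and 61.6 CPM in WT and 3.79, 22.9 and 80.4 CPM in LKO livers. The ranges overlapped widely, and the LKO medians lay above the WT medians in both. Socs2 differed by a log2 fold change of 1.01 (SE 0.35, adjusted p = 0.0358) in SPF and 1.10 (SE 0.41, adjusted p = 0.0396) in GF mice. Neither call was firm. Of 36 fits that each left out 1 library, 27 kept the SPF call and 21 the GF call. In SPF mice the call was lost, with adjusted p up to 0.0907, without ZT10 replicate 1 or 2, ZT14 replicate 1 or 2 or ZT18 replicate 1 of the WT libraries, or ZT2 replicate 2 or 3 or ZT10 replicate 1 or 2 of the LKO libraries. In GF mice 15 libraries each ended the call when left out (10 WT and 5 LKO, adjusted p up to 0.0792). The SPF value also failed with ZT as a covariate (0.82, adjusted p = 0.0622), and the GF value without the libraries at odds with their labels (1.06, adjusted p = 0.0553). Its direction was the same in each of these fits. Cish, the other feedback gene, gave log2 fold changes of -0.02 (SE 0.48) in SPF and -0.17 (SE 0.51) in GF mice, neither called.

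Stat5b encodes the transcription factor that carries the growth hormone signal to the genome. In GF mice it ranged from 35.3 to 102 CPM (median 54.6) in WT and from 53.9 to 143 CPM (median 86.7) in LKO livers. The log2 fold change was 0.54 (SE 0.13, adjusted p = 0.0013), and the call was kept in each of the 36 fits that left out 1 library. In SPF mice it ranged from 35.4 to 99.0 CPM (median 56) in WT and from 50.2 to 93.8 CPM (median 72) in LKO livers. The log2 fold change of 0.27 (SE 0.11) did not pass (adjusted p = 0.0848), but it did with ZT as a covariate (0.29, adjusted p = 0.00662) or without SPF WT ZT22 replicate 1 or replicate 2. Between GF LKO and SPF LKO livers the log2 fold change was 0.30 (SE 0.10, adjusted p = 0.0175), and with library totals alone it was 0.18 and was not called (adjusted p = 0.204).

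Igfals, the acid labile subunit, ranged from 41.5 to 131 CPM (median 80.7) in GF WT and from 33.3 to 89.3 CPM (median 63.6) in GF LKO livers, so that 6 of the 18 GF WT values lay above the highest GF LKO value. It fell by 0.39 on the log2 scale in GF LKO livers (SE 0.13, adjusted p = 0.0183). The fall was 0.21 with library totals alone and was not called (adjusted p = 0.155). In SPF mice the difference was -0.09 (SE 0.09, adjusted p = 0.52). Igfbp1 was higher in GF LKO than in GF WT livers by a log2 fold change of 0.83 (SE 0.31, adjusted p = 0.0415), a call lost in 16 of 36 fits that left out 1 library (adjusted p up to 0.0706) and with ZT as a covariate (0.75, adjusted p = 0.0729). The 16 libraries were 7 GF WT and 9 GF LKO libraries, from each ZT. In SPF mice Igfbp1 had a log2 fold change of 0.24 (SE 0.39, adjusted p = 0.713). Igf1, Igfbp2, Igfbp4 and Ghr were called in neither genotype comparison, with log2 fold changes between -0.14 and 0.12. With library totals alone Ghr (0.18 in SPF, 0.15 in GF mice) and Igf1 (0.23 and 0.24) were called higher in LKO livers, where the median gene moved to 0.10 (SPF) and 0.18 (GF).

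The genotype effect in GF mice was then tested against that in SPF mice. None of the 9 members differed, and none had an unadjusted p under 0.05, by edgeR. DESeq2 also called none, beside 0.527% of all genes. Of 13484 genes tested by edgeR, 0.386% were called and 876 genes had an unadjusted p under 0.05. The largest member value was Igfbp1, where the log2 genotype effect was 0.58 higher in GF mice with an SE of 0.51. For Stat5b it was 0.26 higher (SE 0.17) and for Igfals it was -0.30 (SE 0.16). So the calls made only in GF mice above were not shown to be particular to GF mice.

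The third question was how the axis moved over the day. A 24 h cosine was fitted to the 18 libraries of each group. Stat5b and Igfbp4 were called rhythmic in each of the 4 groups. Stat5b peaked between ZT 22.8 and ZT 4.50, and Igfbp4 between ZT 11.1 and ZT 13.9. In SPF WT mice these were 2 of 9 members called, where 16.7% of 12099 genes were called. In SPF LKO mice 3 were called (Igf1, Igfbp4 and Stat5b), where 24.1% of 12278 genes were called. In GF WT mice 4 were called (Igfals, Igfbp4, Socs2 and Stat5b) beside 29% of 11650 genes, and in GF LKO mice 4 (Ghr, Igfbp1, Igfbp4 and Stat5b) beside 38.2% of 11903 genes. Each ZT was sampled in different mice over a single cycle, so a rhythm here is a difference between ZT with the shape of a cosine.

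Stat5b was highest around the end of the night in WT livers and later in LKO livers. In SPF WT livers it averaged 88.0 ± 16.8 CPM (SD, n = 3) at ZT22 and 41.1 ± 5.51 CPM at ZT10, and the fitted peak was at ZT 22.8 with a peak to trough fold of 1.94. In GF WT livers the peak was at ZT 23.4 with a fold of 1.89, from 91.6 ± 11.5 CPM at ZT2 to 45.7 ± 3.25 CPM at ZT10. In LKO livers the fitted peak came at ZT 1.99 in SPF mice, with a fold of 1.49, and at ZT 4.50 in GF mice, with a fold of 1.85. At ZT6 GF WT livers had 57.8, 51.3 and 35.3 CPM, and GF LKO livers had 143, 113 and 112 CPM. The 35.3 CPM came from replicate 3, a library at odds with its label. The GF LKO mean was also higher at ZT10 (89.2 against 45.7 CPM) and ZT14 (68.1 against 50.4 CPM). So the ZT6 values alone do not show a shift. At ZT18 the same groups overlapped, with 79.1, 50.2 and 51.5 CPM in GF WT and 66.9, 53.9 and 72.5 CPM in GF LKO livers. The rhythm of Stat5b differed between LKO and WT in GF mice (adjusted p = 0.00349), a call kept in each of the 36 fits without 1 library. In SPF mice the same test gave an adjusted p of 0.134. It was called there only without SPF WT ZT18 replicate 3 (adjusted p = 0.0312).

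Igfbp4 rose through the light phase and was highest near lights off. In GF WT livers it read 892, 1264 and 1063 CPM at ZT2 and 1903, 1922 and 2023 CPM at ZT10, with no overlap between these times. The fitted peak was at ZT 12.6 and the peak to trough fold was 1.91 (adjusted p = 8.74e-06). In GF LKO livers the fold was 1.39 with a peak at ZT 13.9 (adjusted p = 0.000659), from 1142 ± 62.3 CPM at ZT2 to 1568 ± 74.4 CPM at ZT14. In SPF mice the folds were 1.60 in WT (peak ZT 11.1, adjusted p = 0.00611, and 0.0517 with 6 ZT means) and 1.53 in LKO livers (peak ZT 12.5, adjusted p = 0.00347). The Igfbp4 rhythm differed between GF LKO and GF WT mice (adjusted p = 0.0361), but 15 of 36 fits without 1 library lost that call (8 GF WT and 7 GF LKO libraries, adjusted p up to 0.0791), and testing 6 ZT means in place of a cosine gave an adjusted p of 0.31.

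**Figure D3:**
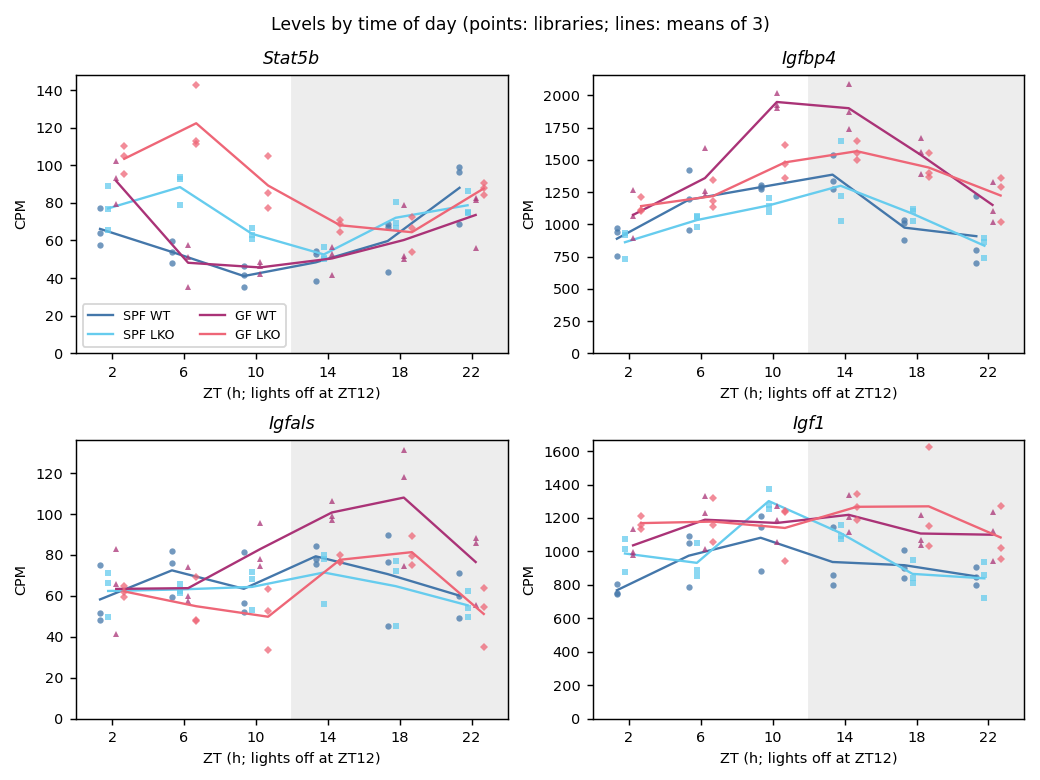
CPM of Stat5b, Igfbp4, Igfals and Igf1 against ZT in h, with 1 point per library, lines through the means of 3, and the dark phase shaded. At ZT6 the 3 GF LKO values of Stat5b, 112 to 143 CPM, lie above all GF WT values at that time, 35.3 to 57.8 CPM. The lowest of these came from a library at odds with its label.

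The other rhythm calls were specific to a group only in the sense that the threshold was passed there. Igfals in GF WT livers ran from 63.4 ± 20.9 CPM at ZT2 to 108 ± 29.7 CPM at ZT18 (peak ZT 15.8, fold 1.78, adjusted p = 0.0051), and with 6 ZT means it was not called (adjusted p = 0.0825). Igf1 in SPF LKO livers read 1373, 1253 and 1277 CPM at ZT10, above every other SPF LKO value, and peaked at ZT 10.1 (fold 1.43, adjusted p = 0.0103). Igf1 in SPF WT livers had its fitted peak at ZT 11.1 and a fold of 1.29, with an adjusted p of 0.0942 that was 0.0366 without the library labelled ZT14 replicate 3. Igfbp1 in GF LKO livers peaked at ZT 6.35 (fold 2.65, adjusted p = 0.0257), from 734 ± 180 CPM at ZT10 to 213 ± 46.3 CPM at ZT18, and the call was lost without ZT18 replicate 1 or 2 (adjusted p up to 0.0598). In SPF WT livers Igfbp1 had its fitted peak at ZT 21, with a fold of 5.92 that did not pass (adjusted p = 0.0542), though it did by DESeq2 (adjusted p = 0.0119), with library totals alone (adjusted p = 0.0459) and without ZT10 replicate 1, ZT18 replicate 3 or ZT22 replicate 3. Ghr in GF LKO livers had a peak at ZT 5.51 and a fold of 1.22 (adjusted p = 0.0178), a call lost without ZT18 replicate 3 (adjusted p = 0.0516) and with 6 ZT means (adjusted p = 0.145). Socs2 in GF WT livers had a peak at ZT 13.3 and a fold of 5.23 (adjusted p = 0.0423), and 13 of 18 fits without 1 library lost it (adjusted p up to 0.186), as did leaving out the library at odds with its label (adjusted p = 0.0519). Between the genotypes in SPF mice no member's rhythm differed, where 1.03% of 13159 genes were called, and in GF mice 2 of 9 differed, where 6.25% of 12662 genes were called. Between GF and SPF mice none differed in WT livers, where 0.0548% of 12776 genes were called, or in LKO livers, where 5.15% of 13010 were. These counts of 0 are by edgeR. The members with an unadjusted p under 0.05 were 3 between the genotypes in SPF mice, 2 between GF and SPF in WT and 2 in LKO livers. Over all genes tested, 1747 of 13159, 1529 of 12776 and 3116 of 13010 had such a p. DESeq2 called 0, 1 (Socs2, adjusted p = 0.0396) and 1 (Stat5b, adjusted p = 0.0451) of the members, beside 2.23%, 0.352% and 8.88% of all genes.

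The feedback genes and Igfbp1 differed widely between mice of the same group and ZT. At ZT14 the 3 GF WT livers read 9.30, 8.97 and 61.6 CPM of Socs2 and 2.51, 4.57 and 42.3 CPM of Cish, so the same mouse, replicate 3, was high in both. At ZT18 GF WT replicate 3 read 41.8 CPM of Cish against 0.991 and 3.98 CPM in the other two, and its Socs2, 15.4 CPM, lay between their 1.18 and 22.1 CPM. In GF LKO livers at ZT18, replicate 2 was high in both, with 71.3 CPM of Socs2 against 10.3 and 11.9, and 17.3 CPM of Cish against 2.90 and 1.17. At ZT22 SPF WT replicate 3 read 24.0 CPM of Socs2 and 25 CPM of Cish, against at most 7.74 and 1.76 CPM in the other two.

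**Figure D4:**
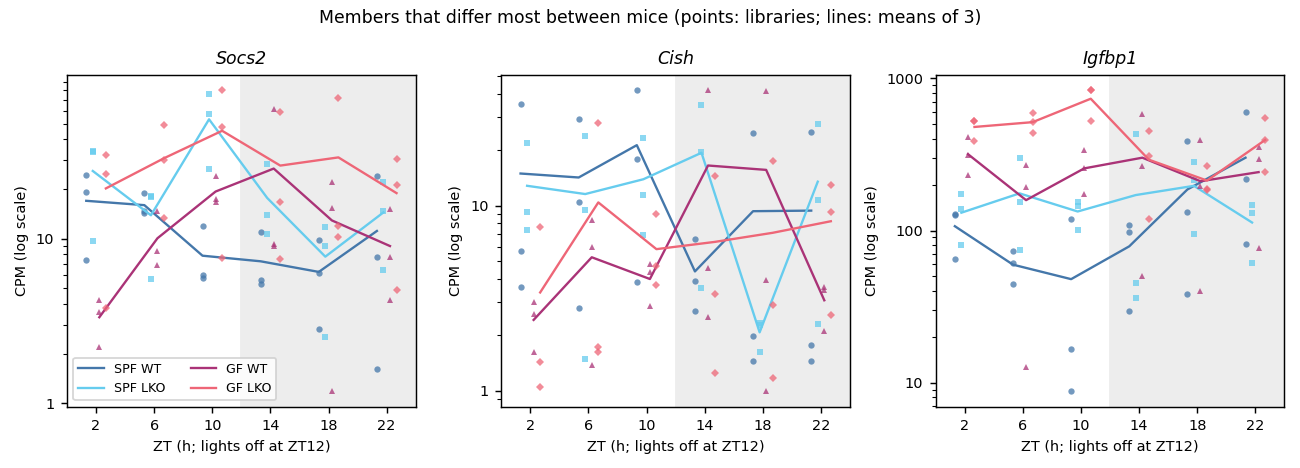
CPM (log scale) of Socs2, Cish and Igfbp1 against ZT in h, with 1 point per library and lines through the means of 3. Livers of the same group and ZT are often 5-fold or more apart, as for Cish in GF WT livers at ZT14, with 2.51, 4.57 and 42.3 CPM.

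To see which members rose and fell together between mice, the deviation of each library's log2 CPM from the mean of its group at its ZT was correlated over the 72 libraries for the 36 pairs of members. Such deviations leave out group and time of day, but libraries share their sequencing and scaling. Permutation tests that shuffled 1 gene's values among the 3 libraries of a group and ZT (100000 shuffles, two-sided) gave 8 pairs with a Benjamini-Hochberg adjusted p under 0.05 over the 36. Socs2 and Cish went together (Pearson r = 0.504 with permutation p = 0.00098 and adjusted p = 0.00882, Spearman rho = 0.449 with permutation p = 0.00199 and adjusted p = 0.0143). Ghr and Igf1 did as well (r = 0.475 with permutation p = 0.00077 and adjusted p = 0.00882, rho = 0.479 with permutation p = 0.00039). Igfals went with Socs2 (r = 0.448 with permutation p = 0.00138 and adjusted p = 0.00994, rho = 0.393 with permutation p = 0.004).

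Stat5b ran opposite to Igf1, Socs2 and Cish. Livers with more Stat5b than others of their group and ZT had less Igf1 (r = -0.583 with permutation p = 2e-05 and adjusted p = 0.00072, rho = -0.585 with permutation p = 3e-05), and r lay between -0.779 and -0.514 within each of the 4 groups of 18. They also had less Socs2 (r = -0.453 with permutation p = 0.00205 and adjusted p = 0.0123, rho = -0.446 with permutation p = 0.00162) and less Cish (r = -0.408 with permutation p = 0.00782 and adjusted p = 0.0352, rho = -0.379 with permutation p = 0.00854). They had more Igfbp1 (r = 0.571 with permutation p = 0.00034 and adjusted p = 0.00612, rho = 0.475 with permutation p = 0.00125). For Igfbp1 the within-group values of r were 0.673 (SPF) and 0.809 (GF) for WT mice, while LKO mice had 0.0346 (SPF) and 0.0199 (GF), a difference between genotypes that was not tested. In GF WT livers Igfbp1 was lowest in replicate 3 at each ZT (12.7 to 231 CPM). The shuffles took the libraries of a group and ZT as exchangeable, and the part of replicate number in these correlations was not tested. Igfbp1 and Igfbp4 completed the 8 pairs (r = 0.408 with permutation p = 0.00728 and adjusted p = 0.0352), but the pair did not pass by rank (rho = 0.328 with permutation p = 0.0226 and adjusted p = 0.0813) or without the 4 libraries at odds with their labels (r = 0.295, permutation adjusted p = 0.11). Leaving out the 2 libraries farthest from the median of the first gene left these 8 values of r with the same sign, the weakest being 0.34 for Igfbp1 with Igfbp4. With library totals alone 4 of the 8 passed (Socs2 with Cish, Igfals with Socs2, Stat5b with Igf1 and Stat5b with Igfbp1). Ghr with Igf1 (r = 0.365), Igfbp1 with Igfbp4 (r = 0.368), Socs2 with Stat5b (r = -0.348) and Cish with Stat5b (r = -0.387) did not, with permutation adjusted p from 0.052 to 0.0559. Within groups r was lowest in size in SPF LKO mice for several pairs: it was 0.0677 there for Ghr with Igf1 (0.341 to 0.85 in the other groups), 0.128 for Socs2 with Cish (0.484 to 0.742), -0.245 for Socs2 with Stat5b (-0.652 to -0.371) and 0.0713 for Cish with Stat5b (-0.663 to -0.311). These differences between groups were not tested.

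**Figure D5:**
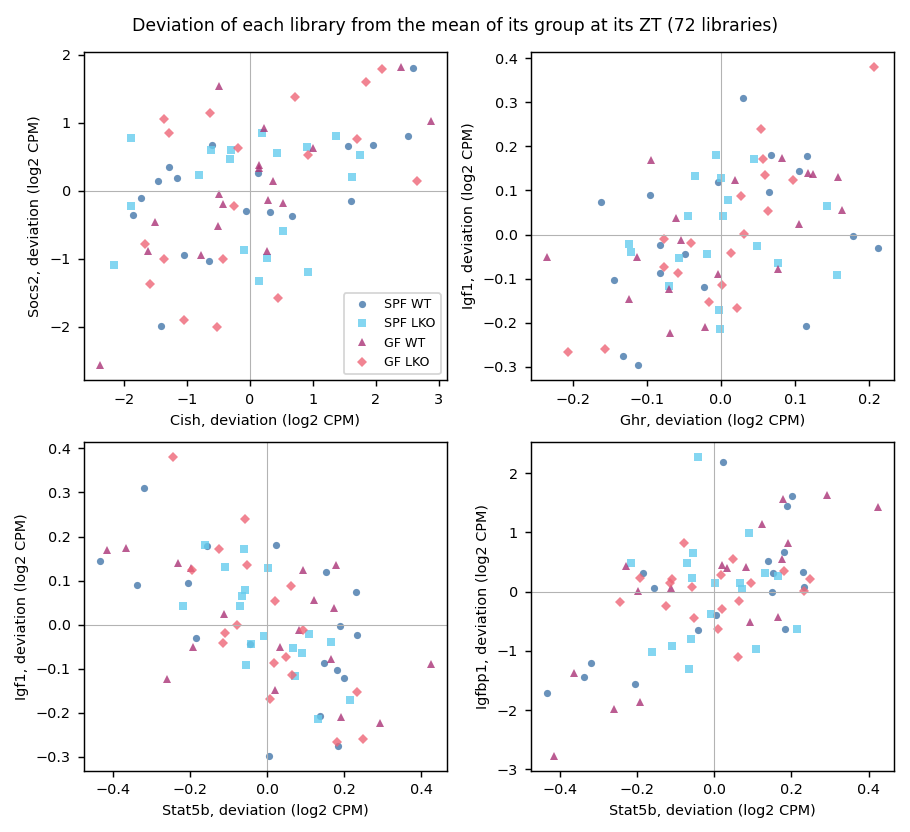
Deviation of log2 CPM from the mean of the library's group and ZT for 4 pairs of members, 72 libraries in 4 groups. Points rise to the right for Socs2 against Cish and Igf1 against Ghr, and fall to the right for Igf1 against Stat5b (r = -0.583).

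The rest of the pathway was read through lists of known genes. List values include the 4 libraries at odds with their labels, 2 of them SPF LKO. For Prlr the lowest SPF LKO library had 83.1 CPM, near the SPF WT median of 82.7 CPM, where the SPF LKO median was 204 CPM. The lists include members where they belong, and each count is to be read against the share of all genes called, 23% in SPF and 30.7% in GF mice for LKO against WT, and 31.7% in WT and 36.2% in LKO mice for GF against SPF. Of 18 genes of growth hormone receptor signalling, 17 were tested in each comparison. In LKO against WT livers 5 were called, all higher, in SPF and in GF mice, with median log2 fold changes of -0.00203 and -0.02 beside -0.01 and 0.01 over all genes. Prlr, the prolactin receptor gene, which in rodents also binds placental lactogens, rose by a log2 fold change of 1.12 in SPF and 1.14 in GF mice. Irs2, an adaptor of the insulin and IGF1 receptors, rose by 1.04 and 1.01, and Grb10, an adaptor that restrains them, by 0.66 and 0.92. In GF against SPF mice 4 of the 17 were called in WT (3 higher, 1 lower) and 6 in LKO livers (4 higher, 2 lower), with medians of -0.01 and 0.04. Irs2 rose by 0.73 in WT and 0.71 in LKO livers, and Prlr by 0.57 and 0.61. Jak2, the kinase bound to the receptor, fell by 0.19 in WT livers, and Socs3, another feedback gene, fell by 0.63 in LKO livers.

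Of 18 genes for IGF ligands, receptors, binding proteins and proteases, 13 were tested. In GF against SPF mice 5 were called in each genotype, 4 higher and 1 lower, with medians of 0.26 in WT and -0.02 in LKO livers (31.7% and 36.2% of all genes were called). Besides the members, Igf1r, the IGF1 receptor gene, fell by 0.48 in WT and 0.35 in LKO livers, and Igfbp5 rose by 0.76 in WT livers. Igf1r was low in whole liver, with medians of 2.59 CPM in SPF WT, 1.80 in GF WT, 2.47 in SPF LKO and 1.96 in GF LKO livers. In LKO against WT livers 1 was called in SPF mice, Igfbp3 (0.38), which encodes the main carrier of IGF1 in blood (23% of all genes). In GF mice 4 were called, 1 higher and 3 lower (30.7% of all genes), among them Igfbp5 (-0.71) and Igf2r (-0.20), which clears IGF2.

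Male-biased and female-biased liver genes are a known readout of the male growth hormone pulse pattern. Of 13 male-biased genes, all tested, 6 were called in SPF LKO against SPF WT livers (4 higher, 2 lower) and 8 in GF LKO against GF WT livers (4 higher, 4 lower), with medians of -0.03 and 0.17, where 23% and 30.7% of all genes were called. Cyp7b1, an oxysterol hydroxylase, rose by 1.03 in SPF and 1.33 in GF mice, and Elovl3, a fatty acid elongase, by 1.47 and 1.21. Cyp4a12a, a fatty acid hydroxylase, fell by 0.78 and 1.07. Its near-identical copy Cyp4a12b averaged 87.1 CPM in SPF WT and 103 CPM in SPF LKO livers, and 149 CPM in GF WT and 140 CPM in GF LKO livers. Reads that map to several copies were not counted, so the values of both are uncertain. In GF against SPF mice 7 were called in WT livers (6 higher, 1 lower, median 0.28), led by Cyp4a12b (0.75), Selenbp2 (0.61) and Gstp1 (-0.52). In LKO livers 8 were called (7 higher, 1 lower, median 0.31), led by Cyp7b1 (0.72), Mup20 (0.51) and Hsd3b5 (0.51), beside 14.1% (WT) and 17.9% (LKO) of all genes called higher.

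Of 19 female-biased genes only 5 to 7 had enough counts to be tested in these males. In LKO against WT livers 4 of 6 were called in SPF mice (1 higher, 3 lower, median -0.29) and 6 of 7 in GF mice (2 higher, 4 lower, median -0.59), beside 11.5% and 15.2% of all genes called lower. Acot3, a fatty acid thioesterase gene, fell by 2.01 (SPF) and 5.12 (GF mice), and Cyp17a1, a steroid hydroxylase, by 1.91 and 2.39. Cyp2b10 rose by 1.56 in SPF mice, and Cyp2b9 fell by 3.89 in GF mice. Cyp2b9 was near the floor, with a median of 1.58 CPM and a highest value of 18.9 CPM in GF WT livers. In GF LKO livers its median was 0.08 CPM. In GF against SPF mice 4 of 7 were called in WT livers (3 higher, 1 lower, median 0.47) and 2 of 5 in LKO livers (1 higher, 1 lower, median -0.05), where 31.7% and 36.2% of all genes were called. Cyp2c69 rose by 2.81 in WT and 3.77 in LKO livers, Cyp2b9 by 1.72 and Cyp17a1 by 1.06 in WT livers, and Cyp2b10 fell by 0.92 in LKO livers. The SPF WT median of Cyp2b9 was 0.540 CPM. Most of these genes belong to families of near-identical copies, and reads that map to several copies were not counted, so their values are uncertain.

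Of 11 genes that report insulin, fasting and glucocorticoid input, 6 were called in GF LKO against SPF LKO livers, all higher (median 0.43), beside 17.9% of all genes called higher. Among them were Irs2 (0.71), Pck1 (0.63), the gluconeogenic enzyme gene, and Tsc22d3 (0.62), a glucocorticoid target. In GF WT against SPF WT livers 1 was called, Irs2 (0.73), with a median of 0.31. In LKO against WT livers 1 was called in SPF mice (Irs2, median -0.31) and 2 in GF mice, with Irs2 higher and Fkbp5, a glucocorticoid target, lower by 1.14 (median -0.07), where 31.7%, 23% and 30.7% of all genes were called in these 3 comparisons. Of 12 clock genes 8 were called in LKO against WT livers in SPF and 9 in GF mice, led by Npas2 (3.25 and 2.83), Nr1d1 (-2.93 and -2.80) and Ciart (-2.30 and -3.51). In GF LKO against SPF LKO livers 3 of 11 were called, all lower: Per3 (-0.89), Nr1d2 (-0.79) and Arntl (-0.30). The SPF LKO libraries here include ZT14 replicate 2 and ZT18 replicate 1, whose clock genes went against their labels. ZT18 replicate 1 had 29.3 CPM of Arntl, and the other SPF LKO libraries had at most 16.8 CPM. Values of these 3 genes without those libraries are not given here.

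The genes whose log2 CPM ran most like each member over the 72 libraries, among 10710 genes, are given as a description, since group, time and scaling are shared by the points. They were Rnf13 (r = 0.85) and Sult2a8 (0.78) for Ghr, Mpzl1 (0.84) and Bok (0.84) for Stat5b, Rrn3 (0.75) and Tmx4 (0.73) for Socs2, and Foxa1 (0.81) and Rnd3 (0.76) for Cish. For Igf1 they were Gcsh (0.77) and Ube2d3 (0.76), and for Igfals Tpcn1 (0.76) and Rbm19 (0.70). Igfbp1 ran most like Irf2bp2 (0.83) and Arl4d (0.77), Igfbp2 like Ahsg (0.84) and F10 (0.81), and Igfbp4 like Adipor1 (0.91) and Poldip2 (0.83).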

How the data were processed

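Whole liver RNA was sequenced in 72 libraries, and the authors deposited 1 table of raw read counts per Ensembl gene. Per the study's methods, stranded single-end reads were aligned to the mouse genome GRCm38 with STAR 2.6.1b. Per the file header they were counted over exons per gene with featureCounts 2.0.0, whose command sets no option for strand, multimapping reads or overlapping genes, so its defaults (no strand, neither kind of read counted) held. Of the 72 columns, 0 were not used. Groups came from the sample labels. Totals ran from 17369927 to 22076113 counts, so counting error is small except for Socs2 and Cish, with as few as 19 and 16 counts. The members and gene lists were chosen with earlier results of these data known.

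Counts were scaled by TMM, genes with low counts were removed with filterByExpr, and each comparison was fitted to its own groups with the quasi-likelihood test of edgeR 4.0.16 (R 4.3.3), with Benjamini-Hochberg adjustment over all genes tested and a threshold of 0.05. CPM and TPM were computed from the counts. Rhythm was tested as a 24 h cosine with edgeR, where the study used eJTK, and a rhythm difference as the cosine terms by group. Scripts were tested on simulated data. Alternatives were DESeq2 1.42.0, relative-log-expression size factors, library totals, no filter, ZT as a covariate, 6 ZT means, a replicate block, each library left out, and the 4 libraries at odds with their labels left out. The covariation test, its alternatives and its permutations were added after the data were seen. Genes named from a list are the up to 3 called genes with the largest change that are not members, and the genes most like a member are the 2 with the highest Pearson r over the 72 libraries. Promoter sequences are from RefSeq on GRCm38.p6.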

Additional observations from a re-analysis of the deposited data

Results flagged for a closer look

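The 24 h rhythm of Stat5b differed between GF LKO and GF WT livers in a test of the difference itself (edgeR, adjusted p = 0.00349). The rhythm of Igfbp4 also differed between these groups (adjusted p = 0.0361), and that call was lost in 15 of 36 fits that left out 1 library.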

How the results depend on the processing

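With library totals alone, members called went from 1 to 4 by genotype in SPF mice, where 4344 genes (33%) were called. They fell to 1 by microbiota in WT mice, where 6308 genes (49.4%) were called, and to 3 in LKO mice, where 5531 (42.5%) were. All genes called there were 6899 by genotype in GF mice and 3 for the rhythm difference between GF and SPF in WT mice. With the same scaling 4 covarying pairs of members were called. The log2 values that reversed there were Igfals 0.0111, Igfbp4 0.00658 and Cish 0.0651 by genotype in SPF mice, Ghr 0.15 and Igfbp4 0.0234 by genotype in GF mice, Stat5b -0.16 and Ghr -0.0352 by microbiota in WT and LKO mice, and Igf1 0.0128 and Igfbp4 0.0168 for the genotype by microbiota difference. Without the filter, members called by genotype were 0 in SPF and 2 in GF mice, beside 8.43% and 12.8% of all genes. Genes with a rhythm difference were then 88 (LKO and WT, SPF), 4 (GF and SPF, WT) and 370 (GF and SPF, LKO). With 6 ZT means, rhythmic members were 1 in SPF WT and 2 in GF WT mice, and 1 differed between LKO and WT in GF mice. Rhythmic genes were then 980, 790 and 1722 in SPF WT, SPF LKO and GF WT mice, and genes with a rhythm difference 39 and 480 between genotypes in SPF and GF mice, and 1 and 1 between GF and SPF in WT and LKO mice. DESeq2 called 294 genes for the rhythm difference between genotypes in SPF mice, and 45 and 1155 between GF and SPF in WT and LKO mice, with 1 member in each of the last 2. ZT as a covariate gave 83 genes for the genotype by microbiota difference and Cish 0.11 by genotype in GF mice. Without the libraries at odds with their labels, 351 genes (genotypes, SPF) and 408 genes (GF and SPF, LKO) had a rhythm difference, Igfals by microbiota in LKO mice was 0.0202 and the genotype by microbiota difference of Socs2 -0.0480. The cause of these changes was not tested.

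Leaving out 1 library at a time gave 0 to 2 members called by genotype in SPF and 2 to 4 in GF mice, beside 2801 to 3493 and 3735 to 4048 genes. For rhythm differences it gave 0 to 1 members and 92 to 217 genes (genotypes, SPF), 1 to 2 members and 679 to 907 genes (genotypes, GF), 1 to 9 genes (GF and SPF, WT), and 0 to 1 members and 316 to 1174 genes (GF and SPF, LKO). Values that changed sign ran from -0.18 to 0.20 for Cish and -0.0187 to 0.0555 for Igfbp2 by genotype in SPF mice, -0.46 to 0.27 for Cish by genotype in GF mice, -0.0366 to 0.0813 for Stat5b and -0.0638 to 0.39 for Socs2 by microbiota in WT mice, -0.0539 to 0.0177 for Igfals in LKO mice, and -0.0587 to 0.44 for Socs2 and -0.45 to 0.29 for Cish in the genotype by microbiota difference.

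Replicate numbers did not pair the libraries of 2 groups: at most 6 of 18 same-numbered pairs had deviations correlated over 0.1 in any comparison. This check compares groups and cannot show a difference between replicate numbers within a group. In GF WT livers Igfbp1 was lowest in replicate 3 at each ZT (12.7 to 231 CPM). With the replicate block, 1 and 4 members were called by genotype in SPF and GF mice, 5 and 5 by microbiota in WT and LKO mice, and all genes called were 3525, 4478, 4515 and 5020. Under the block Cish by genotype was 0.33 in SPF and 0.23 in GF mice, Stat5b was called (adjusted p = 0.00757, edgeR) and Socs2 was not (0.0688) in SPF mice, Igfals by microbiota in WT mice was called (0.0421), and the Socs2 rhythm in GF WT mice was not (0.0554).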
